A study of Mus musculus with 12 samples.

Results

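RANKL, the cytokine that starts osteoclast formation, was given for 4 h at 50 ng/ml to RAW264.7 cells, an established mouse line of the monocyte and macrophage lineage that can form osteoclasts. The binding sites of the bromodomain proteins BRD2 and BRD3 were then mapped by chromatin immunoprecipitation and sequencing (ChIP-seq). The account is about the BRD3 regions called under RANKL and in no other treatment. Members were chosen by the called positions alone: a region of the BRD3 RANKL list that shared not even 1 bp with a region of the 3 other BRD3 lists. Of the 3840 regions called under RANKL, 705 met this rule (18.4%, 95% interval 17.1% to 19.6%, exact binomial). That share comes from the contrast that the rule itself used, so it is a description. The 4 BRD3 lists came from cells given RANKL, cells given the bromodomain inhibitor I-BET (500 nM, 4 h), cells given RANKL and I-BET together for 4 h, and untreated cells. BRD2 was mapped in the same 4 conditions, and 4 input libraries were not analysed here. All cells were of 1 line, fixed in 1% formaldehyde for 15 min, and each antibody and treatment has 1 library. No difference between treatments could therefore be tested, the treatment and its library cannot be told apart, and the intervals given cover counting error only.

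BET proteins bind acetylated lysines of histones through paired bromodomains and bring elongation factors to promoters and enhancers. I-BET occupies those bromodomains. RANKL acts on its receptor RANK, whose adaptors switch on NF-κB and AP-1 in macrophage precursors, and later the osteoclast genes. Active promoters of housekeeping genes are usually rich in CpG dinucleotides, whereas many promoters of myeloid genes are poor in them.

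Both kinds of promoter lay inside RANKL-only BRD3 regions. The 250 bases before the listed start of 5 genes are given 5′ to 3′ (RefSeq, GRCm38.p6; the peak lists use the same build), with CpG dinucleotides in capitals. The first 3 genes encode leukocyte proteins: Lyz2 a lysozyme (chr10:117282273-117282522, minus strand), Clec12a an inhibitory C-type lectin receptor (chr6:129349994-129350243, plus strand) and Hcst a signalling adaptor (chr7:30419855-30420104, minus strand). The other two are the ribosomal protein genes Rps18 (chr17:33955666-33955915, minus strand) and Rpl34 (chr3:130730338-130730587, minus strand).
Lyz2: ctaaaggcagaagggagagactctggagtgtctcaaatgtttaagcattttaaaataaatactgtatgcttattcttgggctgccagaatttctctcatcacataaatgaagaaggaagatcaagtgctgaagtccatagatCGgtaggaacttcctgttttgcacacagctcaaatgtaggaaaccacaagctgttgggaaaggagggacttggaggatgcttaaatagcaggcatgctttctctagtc
Clec12a: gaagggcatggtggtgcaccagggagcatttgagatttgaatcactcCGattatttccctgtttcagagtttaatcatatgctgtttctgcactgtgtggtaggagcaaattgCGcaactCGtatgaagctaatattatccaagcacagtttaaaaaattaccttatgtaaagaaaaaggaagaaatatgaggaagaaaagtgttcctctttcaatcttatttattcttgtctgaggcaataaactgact
Hcst: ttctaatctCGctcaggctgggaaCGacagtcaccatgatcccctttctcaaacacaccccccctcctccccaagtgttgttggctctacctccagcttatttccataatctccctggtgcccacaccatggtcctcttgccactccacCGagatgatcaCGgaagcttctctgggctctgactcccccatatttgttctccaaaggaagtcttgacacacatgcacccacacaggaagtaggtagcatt
Rps18: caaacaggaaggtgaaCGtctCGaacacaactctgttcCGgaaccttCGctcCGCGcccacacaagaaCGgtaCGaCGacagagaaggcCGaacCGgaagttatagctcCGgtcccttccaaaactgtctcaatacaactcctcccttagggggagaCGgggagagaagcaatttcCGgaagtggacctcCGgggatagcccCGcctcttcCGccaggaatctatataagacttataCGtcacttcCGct
Rpl34: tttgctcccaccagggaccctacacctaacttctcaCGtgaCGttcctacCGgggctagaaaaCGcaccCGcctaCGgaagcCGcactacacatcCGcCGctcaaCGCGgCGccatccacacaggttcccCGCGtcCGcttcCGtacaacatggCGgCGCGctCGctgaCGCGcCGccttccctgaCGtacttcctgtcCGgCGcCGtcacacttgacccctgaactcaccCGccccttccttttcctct
These stretches hold 1 CpG for Lyz2, 3 for Clec12a, 4 for Hcst, 19 for Rps18 and 28 for Rpl34.

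BRD3 regions were called at 7 of 10 macrophage markers in the RANKL list (Spi1, Csf1r, Cebpa, Cd14, Cd68, Lyz2 and Msr1) and at 1 of 30 markers of other cell types (Runx2). The macrophage markers Itgam, Adgre1 and Ptprc had no call. Of all protein-coding genes 16.4% (3592 of 21887) had one, and of a longer list of macrophage identity genes 15 of 35. The BRD3 lists held 3840 regions under RANKL, 2232 under I-BET, 2842 with both and 3668 in untreated cells. Regions found in only 1 of these lists numbered 705 under RANKL, 12 under I-BET, 93 with both agents and 662 of 3668 in untreated cells. The untreated list thus had nearly as many regions of its own as the RANKL list. Depth is unknown, because the lists give no read counts, and a region missing from a list was only not called there. The score of each region is the authors' value. It did not follow the width of the region (Spearman 0.00758 over 3840 regions of the RANKL list), while the scores of neighbouring regions in that list went together (0.608). For regions matched between the RANKL and untreated lists, widths correlated at 0.694 and scores at 0.293 (n = 2759 regions, which share genome and cell line). Width is therefore used for the description, and scores only where a rule for naming regions asks for them.

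**Figure D1:**
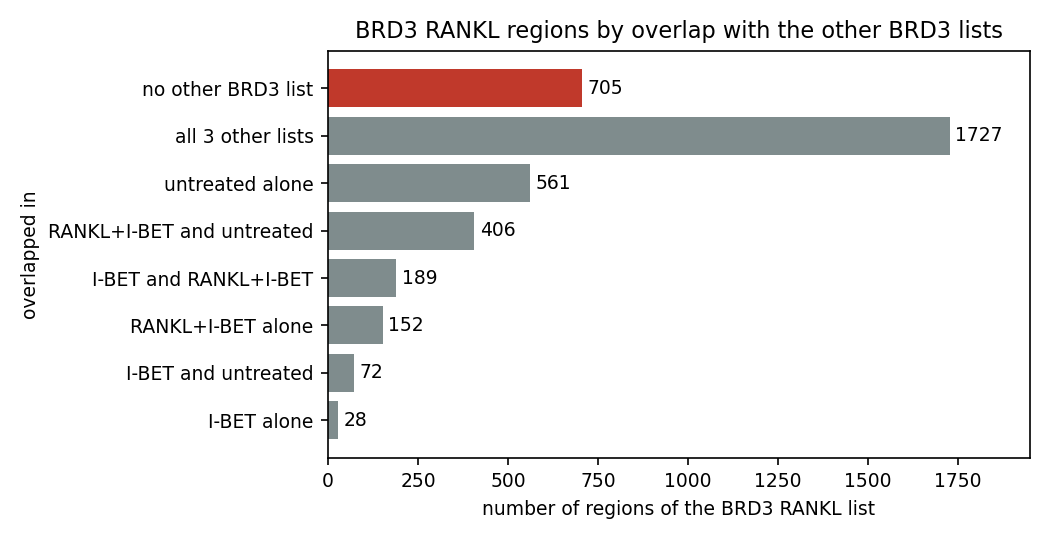
Number of regions of the BRD3 RANKL list (x axis) by which of the other 3 BRD3 lists held an overlapping region (y axis), from 1 library per list. The 705 RANKL-only regions are the red bar; 1727 regions overlapped all 3 other lists.

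RANKL-only regions lay mostly away from gene ends. The midpoint fell at a gene end, here within 1 kb of where a protein-coding gene starts or stops, for 234 of 705 (33.2%, 29.7% to 36.8%), elsewhere in a gene for 203 (28.8%, 25.5% to 32.3%) and between genes for 268 (34.4% to 41.7%). The other 3135 RANKL regions had 67.9% (66.2% to 69.5%) at gene ends and 14.3% (13.1% to 15.6%) between genes. Regions called only in untreated cells stood in the middle, with 54.4% (50.5% to 58.2%) at gene ends. The set most like the RANKL-only regions was the 561 regions called under RANKL and in untreated cells but in neither I-BET list, of which 39.4% (35.3% to 43.6%) were at gene ends. A listed transcription start lay inside 27.4% (24.1% to 30.8%) of RANKL-only regions and inside 59.8% (58.0% to 61.5%) of the other RANKL regions.

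**Figure D2:**
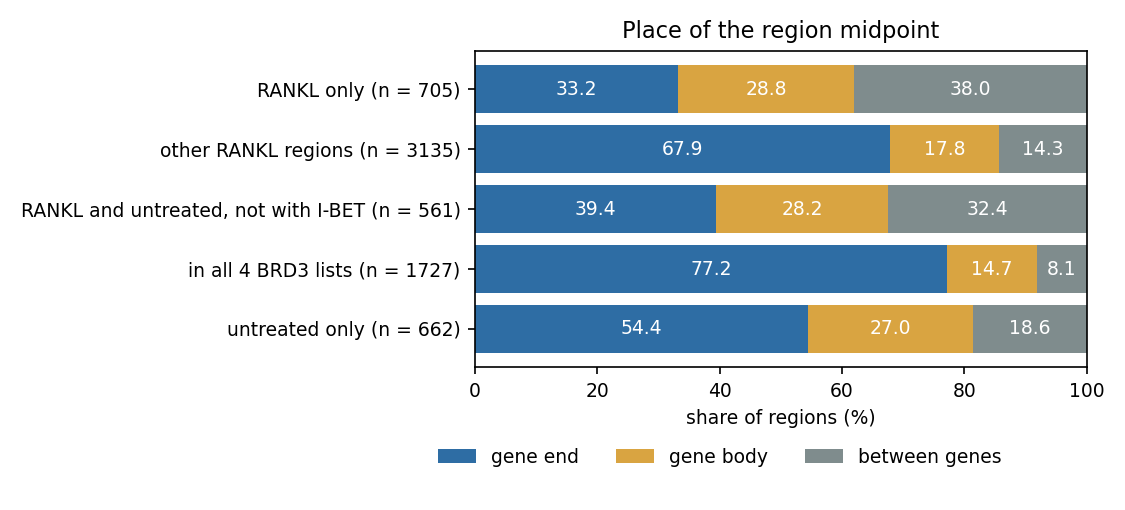
Share of regions in percent (x axis) whose midpoint lay within 1 kb of a gene end, elsewhere in a gene, or between genes, for 5 sets of BRD3 regions (y axis). RANKL-only regions had 33.2% at gene ends, against 67.9% of the other RANKL regions.

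The RANKL-only regions that lay away from gene ends were wider than those at gene ends. Median width was 1006 bp between genes, 962 bp in gene bodies and 556 bp at gene ends. For the other RANKL regions the medians were 864.5 bp (between genes), 691 bp (gene bodies) and 652 bp (gene ends). The 561 regions also called in untreated cells but in neither I-BET list were wider, with medians of 1958.5 bp between genes and 1385 bp in gene bodies. Regions called only in untreated cells had 1091 bp and 960 bp at those places, close to the RANKL-only values. Over all places, RANKL-only regions had a median of 796 bp (quartiles 503 and 1423 bp, range 295 to 7039 bp), against 666 bp for the other RANKL regions. Regions over 2 kb made up 96 of 705 (13.6%) of the RANKL-only set, 229 of 3135 (7.30%) of the other RANKL regions and 156 of those 561 (27.8%). The difference in place was also seen among regions of like width. In the width class of 799 to 1423 bp, 18.8% (13.3% to 25.3%) of RANKL-only regions and 71.5% (67.9% to 74.9%) of the others were at gene ends. In the narrowest class, up to 503 bp, the shares were 49.4% (41.9% to 57.0%) and 63.7% (59.7% to 67.6%).

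BRD2, which the rule did not use, overlapped more of these regions in its RANKL list than in its untreated list. The BRD2 RANKL list overlapped 174 of the 705 regions (24.7%, 21.5% to 28.0%). The I-BET list overlapped 88 (12.5%, 10.1% to 15.2%), the list of RANKL with I-BET 17 (2.41%, 1.41% to 3.83%) and the untreated list 29 (4.11%, 2.77% to 5.85%). Those BRD2 lists differ in length, with 1716, 1067, 245 and 578 regions in the same order, so the shares are best read across sets of BRD3 regions for 1 BRD2 list. The BRD2 RANKL list overlapped RANKL-only regions (24.7%) and regions called only in untreated cells (24.3%, 21.1% to 27.8%) about equally often. The untreated BRD2 list did not: it overlapped 4.11% of RANKL-only BRD3 regions and 13.3% (10.8% to 16.1%) of untreated-only ones. Among the other RANKL regions the BRD2 shares were 19.1% (17.7% to 20.5%) for the RANKL list and 7.53% (6.63% to 8.51%) for the untreated list. Within them the sets differed. The 561 regions also called in untreated cells but in neither I-BET list had 35.5% (31.5% to 39.6%) for the RANKL list and 14.4% (11.6% to 17.6%) for the untreated list. The 152 shared with the list of both agents alone had 11.8% (7.17% to 18.1%) and 3.29% (1.08% to 7.51%), so a low share in the untreated BRD2 list was not particular to RANKL-only regions. At the 471 RANKL-only regions away from gene ends, BRD2 was called at 22.1% under RANKL, 9.13% under I-BET, 1.06% with both agents and 1.70% in untreated cells. For the other RANKL regions away from gene ends these shares were 21.6%, 16.0%, 3.87% and 8.44% in the same order. At gene ends the untreated BRD2 list overlapped 8.97% (5.64% to 13.4%) of RANKL-only regions and 7.096% of the other RANKL regions. The BRD2 RANKL list overlapped 29.9% (24.1% to 36.2%) and 17.9% (16.3% to 19.6%) there. Compared with the other RANKL regions, the lower untreated share was thus seen only away from gene ends. The higher RANKL share was seen only at gene ends.

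**Figure D3:**
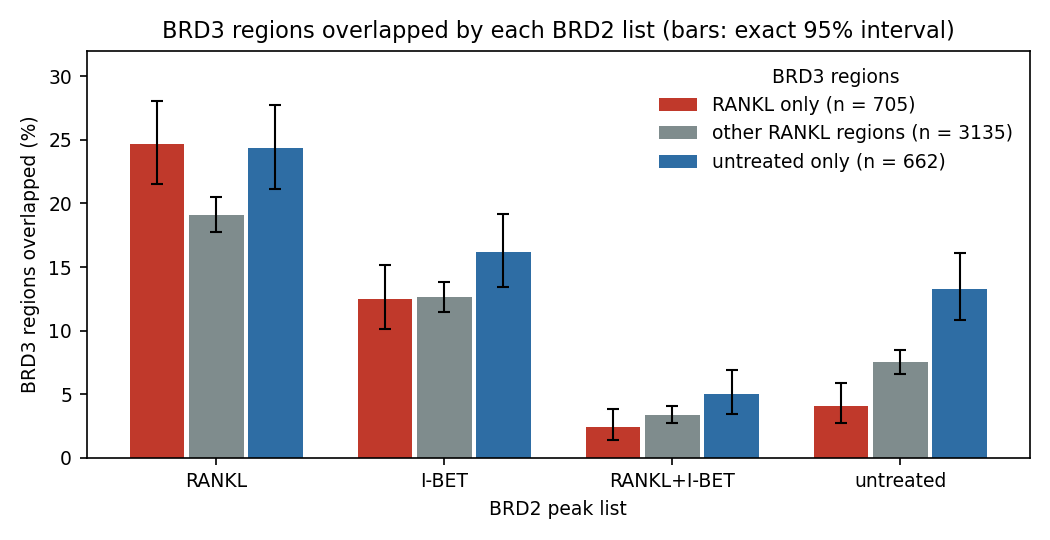
Share of BRD3 regions in percent (y axis) overlapped by at least 1 bp by each BRD2 peak list (x axis), for RANKL-only, other RANKL and untreated-only BRD3 regions; error bars are exact 95% binomial intervals. The untreated BRD2 list overlapped 4.11% of RANKL-only regions and 13.3% of untreated-only regions.

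Of the 174 regions with a BRD2 RANKL overlap, 116 (66.7%, 59.1% to 73.6%) had no overlap in the other BRD2 lists, 49 also had one under I-BET, 15 with both agents and 20 in untreated cells. Overlap with the BRD2 RANKL list rose with width. In RANKL-only regions of 1426 to 7039 bp, BRD2 was called under RANKL at 39.8% (32.5% to 47.4%) and in untreated cells at 2.27% (0.623% to 5.72%). The other RANKL regions of that width class had 43.5% (38.6% to 48.4%) under RANKL and 17.4% (13.9% to 21.4%) in untreated cells. In the narrowest class the BRD2 RANKL share was 7.22% (3.90% to 12.0%) for RANKL-only regions and 5.52% (3.83% to 7.66%) for the others. The untreated BRD2 list did not follow width in RANKL-only regions, with 2.22%, 8.09%, 3.98% and 2.27% from the narrowest class to the widest. Its shares of the other RANKL regions were 2.17%, 4.63%, 12.4% and 17.4% in the same order. No BRD2 list overlapped 488 of the 705 regions.

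**Figure D4:**
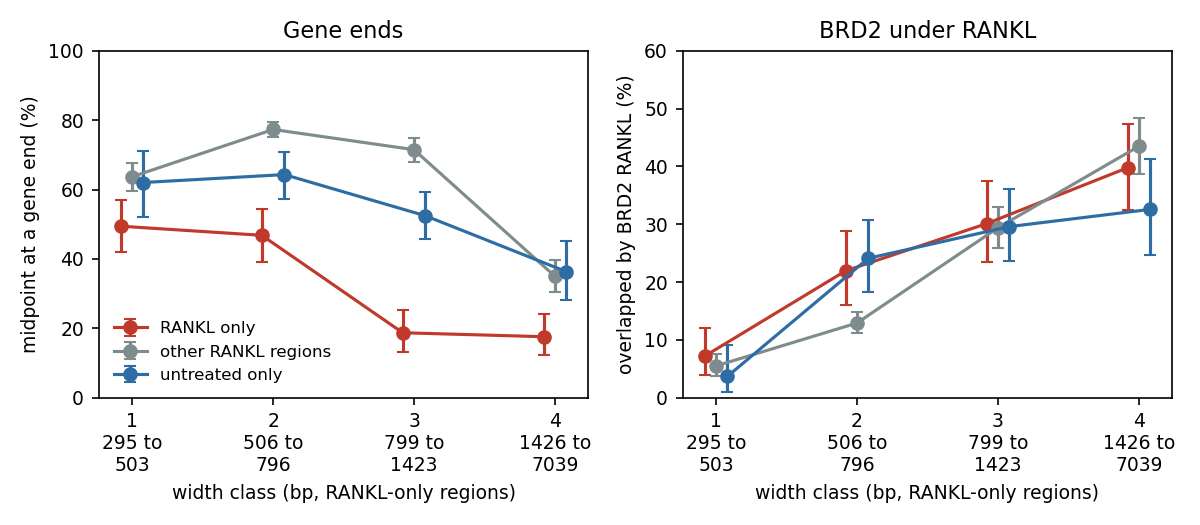
Share of regions at a gene end (left, y axis in percent) and share overlapped by the BRD2 RANKL list (right, y axis in percent) in 4 width classes cut at the quartiles of the RANKL-only regions (x axis), with exact 95% intervals. RANKL-only regions of 799 to 1423 bp had 18.8% at gene ends against 71.5% of the other RANKL regions, while their BRD2 shares, 30.1% and 29.4%, lay within each other's intervals.

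Some genes of macrophage surface receptors held or neighboured wide RANKL-only regions. A RANKL-only region lay in the gene or within 1 kb for 486 of 21887 protein-coding genes (2.22%), and for 7 of 35 macrophage identity genes. Set against the genes with any BRD3 RANKL region, these were 7 of 15 macrophage genes (46.7%, 21.3% to 73.4%) and 486 of 3592 genes in all (13.5%, 12.4% to 14.7%). In untreated cells 13 of the 35 macrophage genes had a BRD3 region, against those 15 under RANKL. The macrophage list was chosen with earlier results of these data known, so its count is a description.

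Cd14, a co-receptor for bacterial lipopolysaccharide (gene 36725064 to 36726815 on chromosome 18), lay inside a BRD3 region of 4485 bp (36722812 to 36727296). The same place had BRD2 regions of 2614 bp under RANKL and 2630 bp under I-BET, and none with both agents or in untreated cells. A further BRD3 region of 1621 bp lay 4.38 kb from the gene, with no BRD2 call. Tlr2, which detects bacterial lipoproteins, showed the same arrangement. A BRD3 region of 2310 bp lay in the gene (chromosome 3, 83839101 to 83841410), overlapped by BRD2 regions of 3300 bp under RANKL and 2377 bp under I-BET. Another of 2003 bp lay 1.44 kb outside it. Neither receptor gene had a BRD3 region within 1 kb in the other 3 BRD3 lists.

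At Cx3cr1, the fractalkine receptor gene, and Msr1, a scavenger receptor gene, RANKL-only regions were added to genes that had a BRD3 region in untreated cells. Cx3cr1 (chromosome 9, 120048683 to 120068296) held a RANKL-only region of 1322 bp inside the gene, and 2 more of 1528 bp and 1085 bp lay 4.40 kb and 10.7 kb from it. BRD2 was called under RANKL at the first (1077 bp) and the third (863 bp). An untreated BRD3 region of 2287 bp was called in the gene or within 1 kb of it. Msr1 held one of 811 bp in the gene, 1730 bp from an untreated region, and had one of 3453 bp 7.14 kb away (chromosome 8, 39649891 to 39653343) with a BRD2 RANKL region of 1267 bp. Near Csf1r, the M-CSF receptor gene, a region of 3266 bp (chromosome 18, 61100526 to 61103791) lay 1.78 kb from the gene (61105572 to 61131139). Only 324 bp separated it from an untreated BRD3 region, so it met the rule narrowly, and BRD2 regions of 2844 bp under RANKL and 1342 bp under I-BET overlapped it.

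Lyz2 had a region of 3935 bp over its start (chromosome 10, 117280679 to 117284613) with a BRD2 RANKL region of 2938 bp. Cyba, a membrane subunit of the NADPH oxidase, had 910 bp at its start (chromosome 8, 122432095 to 122433004), with 764 bp of BRD2 under RANKL. Runx1, a transcription factor of blood cells, had 710 bp inside the gene and no BRD2 call. The nearest gene was Cebpb, another myeloid factor, for a region of 2807 bp 69.0 kb away, where the BRD2 RANKL region measured 2783 bp. Csf2ra, a receptor subunit for GM-CSF, was nearest to one of 449 bp. In all, 15 RANKL-only regions overlapped or were nearest to 10 macrophage genes, with a median of 1621 bp (449 to 4485 bp). BRD2 overlapped 9 of the 15 under RANKL, 3 under I-BET, 0 with both agents and 0 in untreated cells. Those 0 counts say only that no region was called in the 2 shorter BRD2 lists. For comparison, the BRD2 RANKL list overlapped 24.7% of all 705 RANKL-only regions and 39.8% (32.5% to 47.4%) of those 1426 to 7039 bp wide. Overlap with the BRD2 RANKL list rose with width, so the 9 of 15 cannot be told apart from the width of these regions.

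**Figure D5:**
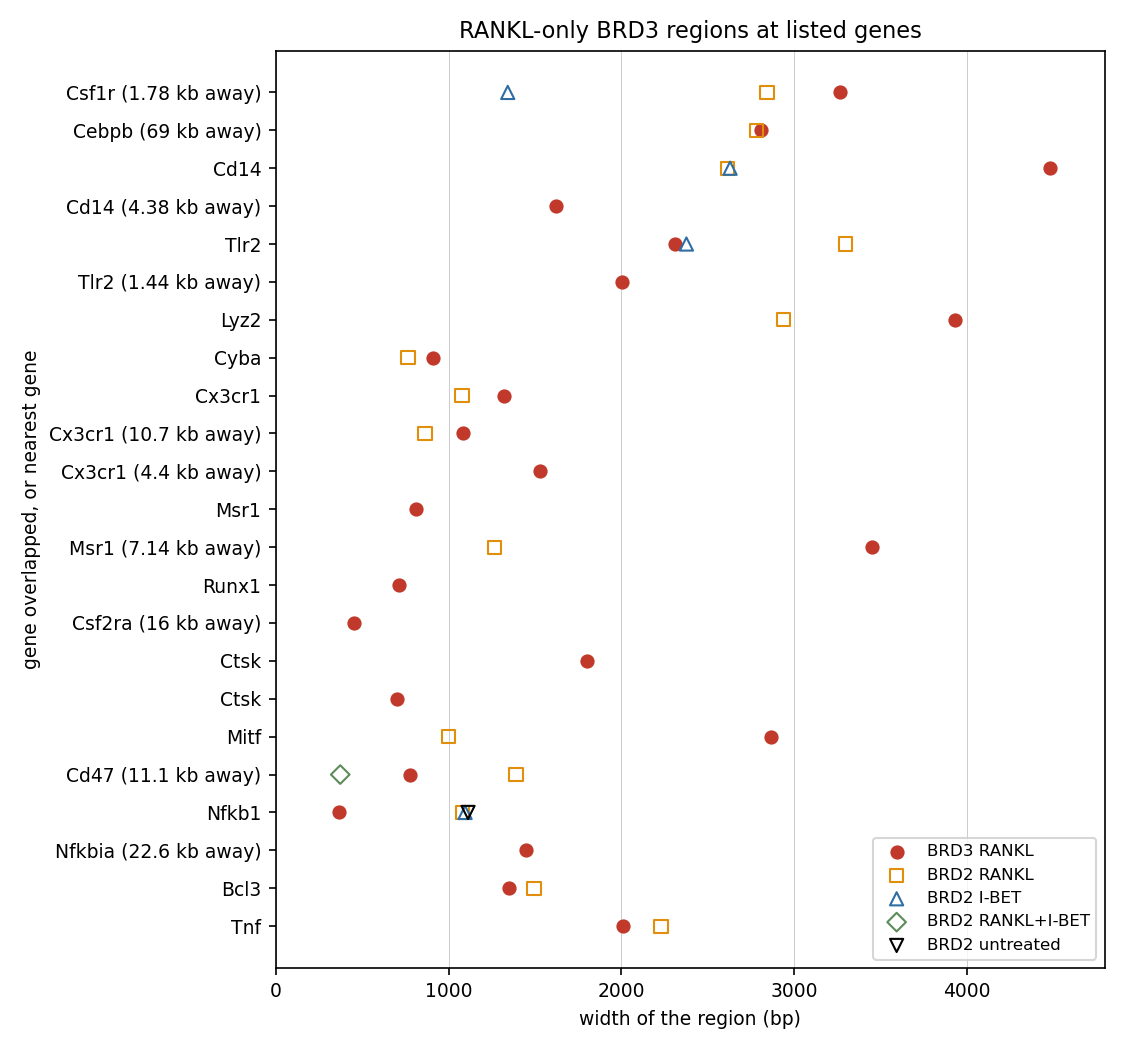
Width in bp (x axis) of each RANKL-only BRD3 region that overlapped, or was nearest to, a gene of the macrophage, osteoclast, RANK and NF-κB or inflammatory lists (y axis; distance from the gene in kb where it lay outside), with the width of any BRD2 region overlapping it. BRD2 in untreated cells appears at 1 of these regions, at Nfkb1.

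Among 30 osteoclast genes, 2 held a RANKL-only region after 4 h (6.67%, with 2.22% of all genes). Set against genes with any BRD3 RANKL region these were 2 of 7, with an exact interval of 3.67% to 71.0% that holds the 13.5% of all genes. In untreated cells 9 of the 30 osteoclast genes had a BRD3 region, more than the 7 under RANKL. Ctsk, which encodes the bone-resorbing protease cathepsin K, had one of 1799 bp just outside the gene (chromosome 3, 95496855 to 95498653), also within 1 kb of Arnt, and one of 701 bp inside it, neither with a BRD2 call. Mitf, a transcription factor of osteoclasts, held one of 2867 bp (chromosome 6, 97854933 to 97857799) with a BRD2 RANKL region of 998 bp. Mitf also had a wider BRD3 RANKL region, of 6461 bp, that was not RANKL-only. In untreated cells it had a BRD3 region of 995 bp in the gene or within 1 kb. Cd47, a cell surface ligand, was nearest to one of 776 bp, 11.1 kb away, with BRD2 of 1390 bp under RANKL and 372 bp with both agents.

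RANK and NF-κB genes also gave 2 of 32, beside 2.22% of all genes. Set against genes with any BRD3 RANKL region these were 2 of 8 (3.19% to 65.1%), an interval that holds the 13.5% of all genes. Any BRD3 region was called at 8 of these 32 genes under RANKL and at 10 in untreated cells. At Bcl3, an atypical IκB protein, a region of 1347 bp covered the start (chromosome 7, 19822645 to 19823991) and a BRD2 RANKL region of 1494 bp overlapped it. Nfkb1, an NF-κB subunit gene, had a BRD3 region of 362 bp at an end of the gene (chromosome 3, 135691465 to 135691826). BRD2 was called there under RANKL (1082 bp), I-BET (1095 bp) and in untreated cells (1112 bp). BRD2 at Nfkb1 was thus not limited to RANKL. Nfkbia, the gene of an NF-κB inhibitor, was nearest to one of 1450 bp, 22.6 kb away. Tnf, 1 of 27 inflammatory genes, had 2009 bp over the gene (chromosome 17, 35200199 to 35202207) and a BRD2 RANKL region of 2230 bp. Of inflammatory genes with any BRD3 RANKL region this was 1 of 3 (0.840% to 90.6%), an interval that also holds the 13.5%.

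Among 30 AP-1 and early response genes, Fosl2, an AP-1 subunit gene, had one of 2095 bp just outside the gene (chromosome 5, 32134041 to 32136135), with 2044 bp of BRD2 under RANKL. A further 5 genes of this list were nearest to a region outside them: Egr3 (1083 bp, 1.75 kb away), Ier3 (2065 bp, 6.58 kb), Klf6 (534 bp, 15.6 kb), Dusp5 (686 bp, 23.7 kb) and Dusp4 (1465 bp, 184 kb). No BRD2 list overlapped those 5. Across the genome, 700 of 21887 genes (3.2%) were overlapped by or nearest to a RANKL-only region, set against 6 of 30 on this list. By the same measure the 13 lists together had 55 of 424 and the macrophage list 10 of 35. A count above the genome share was thus not particular to early response genes. Any BRD3 region lay in the gene or within 1 kb for 6 of the 30 AP-1 and early response genes under RANKL and for 8 in untreated cells. Of those 6 under RANKL, 1 held a RANKL-only region (0.421% to 64.1%). On a list of osteoclast negative regulators, a label chosen here and not tested, 2 of 20 genes held a RANKL-only region, beside 2.22% of all genes. Set against genes of that list with any BRD3 RANKL region these were 2 of 6 (4.33% to 77.7%). Irf2, an interferon regulatory factor gene on that list, held one of 1357 bp inside it, beside 2 BRD3 regions of untreated cells. It was nearest to another of 1684 bp. Lilrb4a, an inhibitory receptor gene, had one of 2121 bp with a BRD2 region of 694 bp under I-BET. Irf2 was also the 1 of 26 interferon genes with a RANKL-only region, and 1 of the 6 with any BRD3 RANKL region (0.421% to 64.1%). The intervals for the early response, negative regulator and interferon lists all hold the 13.5% of all genes so bound.

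Rbpj, the DNA-binding factor of Notch signalling and a restraint on osteoclast formation, had no RANKL-only region in the gene but 3 before it. They measured 1999 bp, 2392 bp and 3075 bp and lay 99.9 kb, 63.5 kb and 44.1 kb from it on chromosome 5. BRD2 was called under RANKL at the first (1218 bp) and the third (1749 bp). The first lay 1407 bp from an untreated BRD3 region and the other two 37437 bp and 27479 bp. Another pair lay on the same chromosome as Myc, the growth-control transcription factor gene (chromosome 15, 61985341 to 61990361). These regions of 1910 bp (62265295 to 62267204) and 2920 bp (62389897 to 62392816) stood 275 kb and 399.5 kb from it, with no BRD2 call. The nearest untreated BRD3 region was 1730665 bp and 1605053 bp from them. Myc was their nearest protein-coding gene, which does not show that they act on it. Id2, an inhibitor of transcription factors, was nearest to one of 367 bp, 107 kb away, and the interferon receptor genes Ifnar1 and Ifnar2 to ones of 2894 bp and 2433 bp, 11.2 kb and 16.9 kb away. The one near Ifnar2 had a BRD2 RANKL region of 2589 bp.

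Ribosomal protein genes had narrow RANKL-only regions, all at gene ends. They numbered 11 of 80, where the background for gene ends is 1.38%, and measured 422 to 1092 bp (median 591 bp). Set against genes with any BRD3 RANKL region, these were 11 of 36 (30.6%, 16.3% to 48.1%), beside 13.5% of all genes. In untreated cells 36 of the 80 genes also had a BRD3 region, so the number of bound genes on this list was the same. Rpl3, Rpl23a, Rpl24, Rpl27, Rpl28, Rpl34, Rpl35a, Rpl36, Rps3a1, Rps15a and Rps18 were the genes. BRD2 was called at 3 of these regions under RANKL, 4 under I-BET, 3 with both agents and 4 in untreated cells. Rps18 had BRD2 regions of 995 bp under RANKL, 980 bp with both agents and 992 bp in untreated cells. Rps3a1 had 831 bp with both agents and 835 bp in untreated cells, and none under RANKL. The ribosomal protein genes thus had BRD2 calls in all 4 lists. Processed copies of ribosomal protein genes can share reads with their parents, which makes calls at these genes uncertain.

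In the lists that follow, counts stand beside the same background of 2.22% of all genes. Of 36 MYC network genes, most of which serve ribosome production and growth, 0 held a RANKL-only region, which at this background and list size is no result about the list. Of them, 24 had a BRD3 region under RANKL, and the exact interval for 0 of 24 (0% to 14.2%) holds the 13.5% of all genes so bound. Of 24 BET and elongation genes, 3 held a RANKL-only region, among them Brd3 itself (768 bp inside the gene, chromosome 2, 27503516 to 27504283) and Nelfe, which encodes a subunit of the pausing factor NELF. Neither Brd3 nor Nelfe had a BRD2 region there. The Brd3 gene also had a BRD3 region of 1160 bp in untreated cells, in the gene or within 1 kb. Cfl1 (cofilin, 481 bp), Myh9 (non-muscle myosin, 546 bp) and Pxn (paxillin, 347 bp) were the 3 of 30 actin and adhesion genes, also without BRD2. Pxn had further BRD3 regions of 2586 bp in untreated cells and 2701 bp under I-BET. Of 32 lysosome and V-ATPase genes, 3 held a RANKL-only region. Set against genes with any BRD3 RANKL region, the BET and elongation list had 3 of 8 (8.52% to 75.5%). The actin and adhesion list and the lysosome list each had 3 of 12 (5.49% to 57.2%). All these intervals hold the 13.5% of all genes so bound. Ctsb, which encodes the protease cathepsin B, had 3824 bp inside the gene (chromosome 14, 63128460 to 63132283) with a BRD2 RANKL region of 3657 bp. Atp6v0a1, a proton pump subunit gene, had 1185 bp with 471 bp of BRD2 under RANKL. Untreated BRD3 regions were called in or within 1 kb of Ctsb (546 bp) and Atp6v0a1 (438 bp). Of 30 marker genes of other cell types 0 held a RANKL-only region, but just 1 of them had any BRD3 region under RANKL, so the count says little. In the 13 lists together, 35 of 424 genes did. Listed genes nearest to a RANKL-only region outside them were also Phb, Supt4a, Rpl14, Rplp1 and Atp6v1c1. The one nearest Supt4a, a subunit gene of the elongation factor DSIF, was 3142 bp wide with 3191 bp of BRD2 under RANKL.

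Of the 486 genes with a RANKL-only region, 394 (81.1%, 77.3% to 84.5%) had no region of the other 3 BRD3 lists in the gene or within 1 kb, and 84 (17.3%) had one in untreated cells. The rule bars its regions from those lists, so these shares are in part set by it and are a description. A single RANKL-only region was found at 471 genes, 2 at 12 genes and 3 or more at 3 genes. Plcb4, a phospholipase C, had 4 (1836, 1381, 2768 and 2895 bp, chromosome 2) beside 2 BRD3 regions of untreated cells. Pla2g4a, the phospholipase that releases arachidonic acid, had 3 (3173, 2309 and 2994 bp, chromosome 1) and no BRD3 region in the other lists. Its BRD2 calls were 1643 bp under RANKL at the first and 2064 bp under I-BET at the third. Lpp, which encodes a LIM protein of cell adhesions, had 3 (583, 7039 and 1329 bp, chromosome 16), including the widest of all at 24624461 to 24631499, without BRD2 at any of them. Lpp also had 2 BRD3 regions of untreated cells.

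Of the 10 widest RANKL-only regions, 8 were overlapped by BRD2 under RANKL, 3 under I-BET, 0 with both agents and 0 in untreated cells. Besides Lpp, Cd14, Lyz2 and Ctsb, they lay at Spef1l (4053 bp) and Nek6 (3942 bp) and outside genes near Irf2bpl (5385 bp, chromosome 12, 86892180 to 86897564), Tmed10 (4010 bp), Sh3tc2 (4010 bp) and Pdcd1lg2 (3986 bp). BRD2 widths under RANKL at these places were 3013 bp (Spef1l), 2277 bp (Nek6), 2465 bp (Irf2bpl), 3294 bp (Sh3tc2) and 805 bp (Pdcd1lg2). The highest scores were at Plec, Rbfox1, Cyb5b, Slc37a2, Osgepl1, Brd3 and F830045P16Rik and near Incenp and Cyp2b13. They ran from 1098 at Plec to 624 at F830045P16Rik, with widths of 515 to 2598 bp. BRD2 under RANKL overlapped the one at Plec (2957 bp), and BRD2 under I-BET the one at F830045P16Rik (1481 bp). The highest BRD2 RANKL scores among overlapped regions were at Ctsb, near Tex44, near Msr1, at Ptcd2 and Mrps27, and near Epb41. At Ptcd2 and Mrps27, which share a promoter region of 701 bp, BRD2 was called in all 4 lists (782 bp under RANKL, 695 bp under I-BET, 635 bp with both and 845 bp in untreated cells).

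Promoters inside RANKL-only regions included more CpG-poor ones than promoters inside the other RANKL regions. The listed 300 bp promoter window lay wholly inside a region for 106 genes (RANKL-only) and 1652 genes (other RANKL regions), taking 1 window per protein-coding gene. The ratio of observed to expected CpG was below 0.4 for 10 of 106 (9.43%, 4.62% to 16.7%), against 23 of 1652 (1.39%, 0.885% to 2.08%) and 7000 of all 17492 listed promoters. The 10 were Lyz2, Clec12a, Hcst, Igsf6, Ptpn22, Ifi207, Bcl2a1b, Btbd19, F9 and C130050O18Rik, among them genes of leukocyte proteins such as the phosphatase gene Ptpn22. Bcl2a1b belongs to a family of near-identical copies, so its call is uncertain. The median ratio was 0.835 (0.789 to 0.891) for RANKL-only promoters and 0.894 (0.882 to 0.903) for the others, so most were CpG-rich in both. The 561 regions also called in untreated cells but in neither I-BET list had 11 of 134 below 0.4 (8.21%, 4.17% to 14.2%), and its interval overlaps that of the RANKL-only set.

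Motif letters were sought on both strands of those windows. The AP-1 letters TGANTCA were in 5 of 106 (4.72%, 1.55% to 10.7%), against 3.03% (2.25% to 3.97%) of the other RANKL promoters and 7.05% of all promoters. For the NF-κB motif the counts were 0 of 106 and 4 of 1652 (0.242%), with 0.412% of all promoters; a count of 0 of 106 has an upper 95% bound of 3.42%. The GC box GGGCGG was in 57.5% (47.6% to 67.1%) and 72.3% (70.1% to 74.5%), with 45.9% of all promoters. In the 134 promoters of the set called in untreated cells but in neither I-BET list it was in 63.4% (54.7% to 71.6%), so a lower share was not particular to RANKL-only regions. Median GC content was 60% for RANKL-only promoters, 62.7% for that set and 64% for the other RANKL promoters. The ETS letters GAGGAAGT were in 1 of 106 and 38 of 1652, the C/EBP letters TTGCNNAA in 8.49% and 7.69%, the NFAT letters TGGAAAA in 7.55% and 3.39%, the E-box CACGTG in 13.2% and 12.1%, and the CRE letters TGACGTCA, which do not contain the AP-1 letters, in 4.72% and 3.51%. Apart from the GC box, each share for the RANKL-only promoters had an interval that held the value of the other RANKL promoters. The windows cover promoters only, and the regions away from gene ends, the majority, were not searched.

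Counted in bases, few RANKL-only regions lay close to a region of another BRD3 list. Regions were sparse in any case: within 1 kb, 0 of 705 had another RANKL-only region and 1 had another RANKL region. How near the other lists came to a call at these places was not measured. A BRD3 region of another list, the untreated one each time, lay within 1 kb of 3 of the 705: at Ikzf1 (593 bp, with a gap of 98 bp), near Csf1r (3266 bp, 324 bp) and on chromosome 8 at 69010020 to 69013724 (3705 bp, 974 bp). Just outside the rule, the smallest overlaps were 237 bp at Epha10 (318 bp wide) and 279 bp at Diaph1 (416 bp wide). The nearest untreated BRD3 region lay a median of 73.7 kb away, and another RANKL-only region lay within 12.5 kb for 72 of 705 (10.2%, 8.08% to 12.7%). Every chromosome of the lists held RANKL-only regions. On the chromosomes other than Y, their share of the RANKL list ran from 13.6% on chromosome 11 (44 of 324) to 24.2% on chromosome 3 (45 of 186).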

How the data were processed

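The 12 samples are 8 ChIP libraries of BRD2 and BRD3 and 4 inputs from RAW264.7 cells, 1 per antibody and treatment, so no p-values are given. Reads were single-end, 50 bp, per the labels. The submitters' processing notes name mm10/GRCm38, MACS2 2.1.1.20160309, Bowtie2 2.3.4.1 and FastQC but no settings. Each deposited list gives positions, joined peak names and a score per region. By those names most regions join 3 peaks, 1 of each of 3 sets that no source used here explains. Depth is unknown.

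Positions were read as BED and are given counted from 1. Regions overlapped when they shared at least 1 bp. Genes were the 21887 protein-coding records of a RefSeq table (GRCm38.p6), which held 424 of 425 listed genes. Promoter windows (250 bases before to 50 after a start) came from a RefSeq table that does not list every gene. Motif windows at region midpoints were planned; promoter windows replaced them because no genome was used here. Shares carry exact (Clopper-Pearson) 95% intervals and medians order-statistic intervals. Python 3.11.15 and SciPy 1.17.1 were used. Overlaps were checked against bedtools 2.31.1 and tested on simulated data. The members, the 13 gene lists, the 8 motifs and the comparisons were chosen with earlier results of these data known. Named were the listed genes with a RANKL-only region, the 10 widest and 10 highest-scoring regions, the 5 with the highest BRD2 score and genes with 3 or more. Genes nearest to a region and the CpG-poor promoters were named after their values were seen. Some items that these rules name are not reported here.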

Additional observations from a re-analysis of the deposited data

How the results depend on the processing

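Counting a RANKL region as shared only with 50% of it covered gave a median width of 943 bp and put 14.1% of regions within 1 kb of another BRD3 list. That setting admits regions that overlap another list, and these count as within 1 kb, so the share rises by construction. Among regions above the median score, 343 members and 19 listed genes were left and the BRD2 RANKL overlap was 21.3%. Among regions above the median width, an alternative chosen after seeing the data, there were 405 members, 22 listed genes, a median of 1320 bp, 21.0% at gene ends and a BRD2 RANKL overlap of 33.1%. Both leave fewer regions by construction. A gene end window of 2.5 kb gave 38.3%, and a distance of 5 kb gave 7.38% near another BRD3 list. Assigning regions outside genes to the nearest gene, also added after seeing the data, gave 55 listed genes against 35. The other settings run left each of these values within its interval, or within 1.5 times for counts. The motif search in 500 bp windows was not run, as it needs a genome. No paired analysis was possible because each group has 1 library. Unknown depth and calling thresholds limit every absence from a list.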
